A study of Mus musculus with 32 samples.

Results

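The effect of the Commd10 Null genotype on RNA levels in the whole mouse embryo was compared between embryonic day 8.5 (E8.5) and E10.5. The measure for each gene was the log2 difference of Commd10 Null over WT at E10.5 minus the same difference at E8.5, called the shift below. A positive shift means that the gene stood higher relative to WT at E10.5 than at E8.5, and a shift of 1 means that the Null to WT ratio was 2 times as high at E10.5 as at E8.5. The comparison used 20 of the 32 libraries of the series, namely 3 Commd10 Null and 10 WT libraries of E8.5 and 3 Commd10 Null and 4 WT libraries of E10.5, and 15057 of the 55414 gene identifiers had enough counts to be tested. Commd10 Null embryos were homozygous for the Vav1-iCre transgene of the strain B6.Cg-Commd10Tg(Vav1-icre)A2Kio/J, which lies in an intron of Commd10, and both genotypes came from matings between heterozygous mice. Null embryos therefore carried an iCre gene under the blood cell promoter Vav1 that WT embryos lacked. The libraries were labelled as biological replicates of embryos taken out of their yolk sacs, whereas the sources used here do not give the number of embryos or the litter behind each library.

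COMMD10 is a subunit of the Commander complex, which returns membrane proteins from endosomes to the cell surface. Between E8.5 and E10.5 a mouse embryo turns and closes its neural tube, the heart tube loops and beats, red cells made in the yolk sac enter the circulation, and the first neurons leave the cell cycle. An RNA level per embryo thus moves with the stage reached as well as with genotype, and in whole embryos fewer cells of a type and less RNA per cell cannot be told apart. The study described Null embryos as abnormal and growth retarded at E8.5. At E9.5 and E10.5 it described them as degrading progressively, with signs of resorption. The part of this decay in the shifts was not tested.

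Each of the 20 libraries held between 7346301 and 8583012 counts of 3′ tags, with a median of 8025962. Levels are given in CPM, the count of a gene divided by its TMM-scaled library total in units of 1000000 counts, in replicate order for groups of 3 or 4 libraries and as the lowest, the median and the highest library for the 10 WT libraries of E8.5. Replicates 6, 8 and 9 of the WT group at E8.5 stood apart from the other 7: Myh6, a heart muscle myosin, was at 0.141, 0 and 1.08 CPM in them, against 12.2 to 68.2 CPM in the others. All counts, lists and named genes were therefore also computed without these 3, and the list counts and named genes that changed are given with their results. The Commd10 count is no check of the labels, since the transgene lies in an intron and these libraries read the 3′ end of transcripts; the position of the tags was not examined. Commd10 was higher in Null embryos, by 1.03 at E8.5 and 0.83 at E10.5 on the log2 scale. It had 86.6, 94 and 87.6 CPM in Null embryos and 36.2, 42.4 and 51.5 CPM in WT embryos at E8.5, 92.5, 79.2 and 84 CPM in Null and 47.9, 46.3, 50.7 and 47 CPM in WT embryos at E10.5, and a shift of -0.20 ± 0.16 (SE, edgeR adjusted p = 0.426). The most abundant identifier, which has no symbol in the names table used, took 18.8 to 22.8% of counts in Null and 15.0 to 19.8% in WT libraries at E8.5, but 17.3 to 20.3% in Null and 2.98 to 5.71% in WT libraries at E10.5.

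The genotype effect differed between the stages for 2792 of 15057 genes (18.5%) by edgeR's quasi-likelihood interaction test, with a threshold of 0.05 on the adjusted p. The shift was positive for 1544 genes (10.3%) and negative for 1248 (8.29%). With a shift of at least 1 in size, 854 genes (5.67%) were higher at E10.5 relative to E8.5 and 782 (5.19%) were lower, while the median shift over all genes tested was 0.015. As background for the classes below, the Null genotype raised 8.09% and lowered 8.99% of the genes tested at E8.5, and raised 12.1% and lowered 12.1% at E10.5. From E8.5 to E10.5, 14.0% of genes rose and 12.9% fell in Null embryos, and 23.6% rose and 22.7% fell in WT embryos.

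Among the 854 genes with a positive shift, 454 differed by genotype at E10.5 alone, 199 at E8.5 alone, 113 at both stages in opposite directions and 18 at both in the same direction. Of the 782 genes with a negative shift, 374 differed at E10.5 alone, 189 at E8.5 alone, 103 in opposite directions and 10 in the same direction. The remaining 70 genes with a positive and 106 with a negative shift passed at neither stage. The shifts thus included gaps that passed at the later stage alone, gaps that passed at the earlier stage alone and gaps that changed sign. A gap that did not pass is not shown to be absent. At E10.5 the genes that passed at E8.5 alone had median log2 ratios of 0.414 (positive shift) and -0.638 (negative shift). The courses within each genotype are given next as a description. The shift equals the Null change minus the WT change. When only 1 genotype passed, its direction therefore largely follows from the sign of the shift. For 260 of the 854 genes with a positive shift only the WT course passed the test, and all 260 fell there, with a median log2 change of 0.309 in Null and -1.28 in WT embryos. A larger group of 368 passed in Null embryos alone and rose there, by a median of 2.21 against -0.107 in WT. Among genes with a negative shift, 446 passed in WT embryos alone and all rose there, with a median change of -0.411 in Null and 1.91 in WT embryos. A further 174 passed in Null embryos alone and all fell there, with a median change of -3.12 in Null and 0.158 in WT embryos. The 216 genes with opposite effects depended on single libraries: there were 79 without Null replicate 1 of E8.5, 115 without Null replicate 3 of E8.5 and 141 without Null replicate 3 of E10.5. Without WT replicates 6, 8 and 9 of E8.5 there were 398, an alternative chosen after the data were seen.

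**Figure D1:**
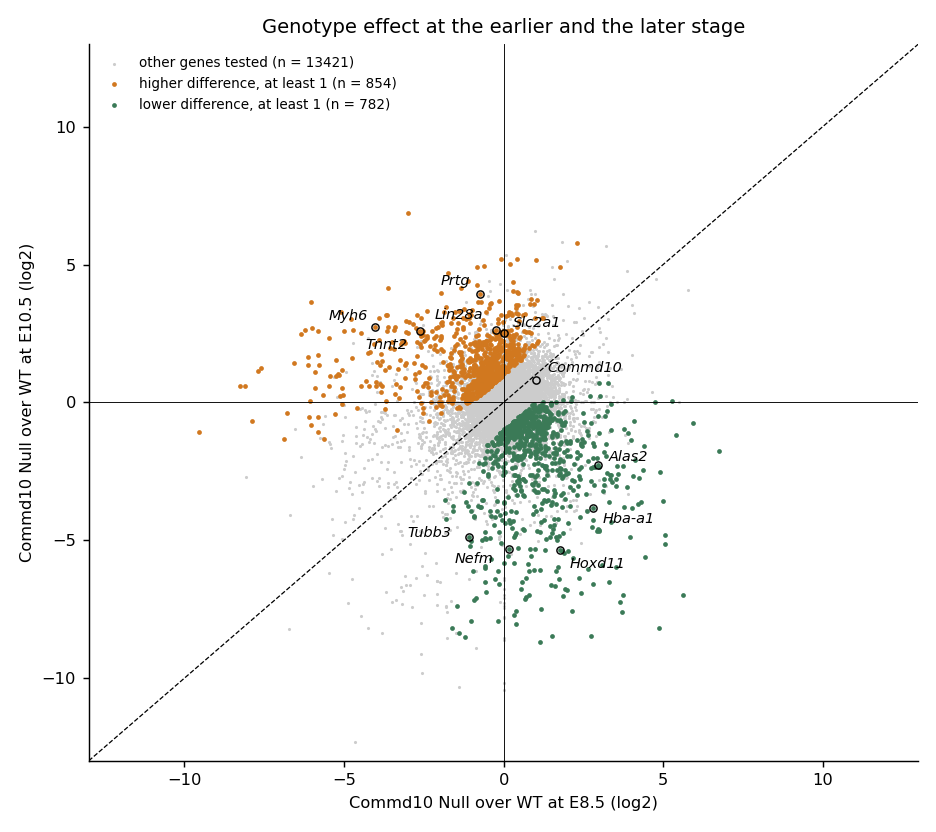
Fitted log2 ratio of Commd10 Null over WT at E8.5 (horizontal axis) and at E10.5 (vertical axis) for the 15057 genes tested; the dashed line marks equal effects. The 854 genes with a positive shift lie above the line and the 782 with a negative shift below it, and named genes such as Myh6 and Hba-a1 lie in the quadrants of opposite sign; ratios of genes with a group at 0 counts depend on the fit.

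Developmental timing genes shifted up in Null embryos relative to WT. LIN28 proteins bind the let-7 precursors and block their maturation in early embryos, and let-7 in turn represses Lin28a, Trim71 and other genes as the embryo ages. All but 1 of 10 genes of the Lin28 and let-7 list had a positive shift that passed the test and none a negative one, with a median of 1.16 beside 0.015 over all genes. The remaining member, Dicer1, had a shift of 0.48 without passing. By the test at each stage, 5 of the 10 were lower in Null embryos at E8.5 and 7 were higher at E10.5. The median log2 ratio was -0.372 at E8.5 and 0.644 at E10.5, so part of the shift was an early gap that closed.

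Lin28a (ENSMUSG00000050966, chr4:134003330-134018841, GRCm38) had 501, 524 and 541 CPM in Null embryos at E8.5 and 486, 601 and 742 CPM in WT embryos. At E10.5 it had 322, 271 and 341 CPM in Null embryos, against 44.1, 50.4, 29.4 and 75.7 CPM in WT embryos. The ranges overlapped at E8.5 and did not at E10.5. The log2 change between the stages was -0.75 in Null and -3.62 in WT embryos, and both passed. The shift was 2.87 ± 0.30 (SE, adjusted p = 6.02e-08, edgeR), and the Null over WT log2 ratio was -0.23 at E8.5, 1.07 at E9.5 and 2.64 at E10.5. Trim71, an RNA-binding ubiquitin ligase repressed by let-7, moved likewise, with 266, 301 and 269 CPM in Null and 220.1, 254 and 299.9 CPM in WT embryos at E8.5. At E10.5 it had 221, 204 and 263 CPM in Null and 32.4, 36.2, 26.4 and 55.5 CPM in WT embryos. Its shift was 2.51 ± 0.24 (adjusted p = 2.08e-08), with a log2 change between the stages of -0.28 in Null embryos, which did not pass, and of -2.79 in WT embryos. Igf2bp1 and Igf2bp3, which encode RNA-binding proteins of the fetal stage, shifted by 1.13 ± 0.17 and 0.95 ± 0.15.

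Prtg and Nr6a1 were among the genes with the smallest p. Prtg encodes protogenin, a surface receptor of the early neural plate and paraxial mesoderm, and Nr6a1 encodes an orphan nuclear receptor of the early trunk. Prtg had 713, 1234 and 741 CPM in Null and 1146, 1493 and 1786 CPM in WT embryos at E8.5, and 1054, 1012 and 1221 CPM in Null and 51.2, 72, 54.8 and 111 CPM in WT embryos at E10.5. Nr6a1 had 279.9, 342 and 184 CPM in Null and 405, 573 and 737 CPM in WT embryos at E8.5, and 202, 164 and 222 CPM in Null and 18.4, 21.5, 18.7 and 36.4 CPM in WT embryos at E10.5. Both were lower in Null embryos by the test at E8.5, where the Prtg ranges overlapped, and above every WT library at E10.5. Null levels of Prtg and Nr6a1 changed by 0.29 and -0.45 on the log2 scale between the stages, which did not pass, and WT levels by -4.36 and -4.58. The shifts were 4.65 ± 0.36 (adjusted p = 1.71e-10) and 4.12 ± 0.32 (adjusted p = 1.78e-10).

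The mature let-7a and the stretches of 3′ UTR that pair with its seed are shown because these transcripts hold that match. MicroRNAs were not measured by these 3′ libraries, and the search was chosen after the values were seen. The first sequence is mature let-7a-5p (RefSeq, GRCm38.p6, chr13:48538239-48538260, minus strand) with its seed, bases 2 to 8, in capitals. The others are DNA letters of the transcript strand around the first match in the longest annotated 3′ UTR (GENCODE vM21, GRCm38), with the 7 bases complementary to the seed, CTACCTC, in capitals.
mmu-let-7a-5p: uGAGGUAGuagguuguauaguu
Lin28a, chr4:134005189-134005210, minus strand: cacagcctgttgaaCTACCTCa
Trim71, chr9:114512472-114512493, minus strand: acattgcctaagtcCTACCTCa
Igf2bp1, chr11:95961778-95961799, minus strand: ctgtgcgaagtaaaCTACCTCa
Igf2bp3, chr6:49086787-49086808, minus strand: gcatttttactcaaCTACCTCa
Prtg, chr9:72912559-72912580, plus strand: cctctgctgaatagCTACCTCa
Nr6a1, chr2:38727719-38727740, minus strand: agactgtggagcagCTACCTCc

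Of the 10 list genes, 8 held at least 1 such match, beside 1443 of 13524 tested genes with an annotated 3′ UTR (10.7%); the list was drawn up as let-7 targets, so its share is no independent evidence. Trim71 held 4 matches in 5512 bases, Lin28a held 2 in 2775 bases, and outside the list Nr6a1 held 8 in 4453 bases and Prtg held 2 in 4989 bases. Long UTRs hold more matches by length alone. A match describes letters and is no measured binding site.

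Glycolysis genes and the glucose transporters Slc2a1 and Slc2a3 also shifted up. The early embryo lives largely on glycolysis, and the hypoxia-inducible factors (HIF) raise the same enzymes and transporters when oxygen is short. Of 26 tested genes for glycolysis and HIF targets 19 had a positive shift that passed and none a negative one, with a median of 1.21. By the test at each stage, 4 of the 26 were higher in Null embryos at E8.5 and 23 at E10.5. Of the 4 genes of the glucose transporter list 2 passed, while Slc2a2 and Slc2a4, the transporters of liver and of muscle and fat, had shifts of -2.42 and 0.75 that did not pass (adjusted p of 0.384 and 0.636).

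Slc2a1 (ENSMUSG00000028645, chr4:119108711-119137983, plus strand), the widespread glucose transporter GLUT1, had the smallest p-value of all genes tested. Null embryos had 1457, 1538 and 1047 CPM at E8.5, and WT embryos 1134, 1379.8 and 1454 CPM. Null embryos still had 1081, 1097 and 1078 CPM at E10.5, while the 4 WT libraries were at 232, 172, 167 and 184 CPM. The groups overlapped at E8.5 and did not at E10.5, and the shift was 2.51 ± 0.18 (SE, adjusted p = 4.09e-11, edgeR). Most of it was present at E9.5, where the log2 ratio was 1.84, between 0.02 at E8.5 and 2.52 at E10.5. Slc2a3, the high-affinity transporter GLUT3, fell in both genotypes but less in the Null: it had 2373, 2200.4 and 1711 CPM in Null and 1172, 1567 and 1975 CPM in WT embryos at E8.5, and 684, 748 and 808 CPM in Null and 101, 53.4, 69.5 and 90.0 CPM in WT embryos at E10.5 (shift 2.85 ± 0.31, adjusted p = 1.43e-07).

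Hk2, the hexokinase that commits glucose to glycolysis, had 282, 379.7 and 214 CPM in Null and 223, 314 and 399 CPM in WT embryos at E8.5. At E10.5 its values were 421, 472 and 532 CPM in Null embryos and 99.1, 94.2, 86.5 and 116 CPM in WT embryos. Here the courses were opposite, a rise of 0.70 in Null embryos and a change of -1.66 in WT embryos on the log2 scale, and the shift was 2.36 ± 0.25 (adjusted p = 7.59e-08). Ldha, which turns pyruvate into lactate, had 2051, 2137 and 2131 CPM in Null and 1407, 1785 and 2115 CPM in WT embryos at E8.5, then 2181, 2128 and 2364 CPM in Null and 688, 643, 611 and 715 CPM in WT embryos. Its shift was 1.52 ± 0.15 (adjusted p = 2.08e-08) with a log2 change of 0.08 in Null embryos, which did not pass, and of -1.44 in WT embryos. The lactate exporter Slc16a3 (2.01 ± 0.30), its chaperone Bsg (1.32 ± 0.13), the isomerase Tpi1 (1.48 ± 0.16) and the phosphofructokinase Pfkp (1.84 ± 0.29) shifted the same way, with adjusted p of 1.59e-05, 2.06e-08, 1.43e-07 and 4.17e-05. Pfkp was the one of these already higher in Null embryos at E8.5, by 1.23.

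Promoters of Slc2a1, Hk2 and Ldha are shown because the glycolysis genes moved together. They run from 250 bases before to 50 after the start (RefSeq, GRCm38.p6), with the core of the HIF site ACGTG, or CACGT for the other strand, in capitals; ACGTG also lies inside the E-box CACGTG.
Slc2a1, chr4:119108495-119108794, plus strand: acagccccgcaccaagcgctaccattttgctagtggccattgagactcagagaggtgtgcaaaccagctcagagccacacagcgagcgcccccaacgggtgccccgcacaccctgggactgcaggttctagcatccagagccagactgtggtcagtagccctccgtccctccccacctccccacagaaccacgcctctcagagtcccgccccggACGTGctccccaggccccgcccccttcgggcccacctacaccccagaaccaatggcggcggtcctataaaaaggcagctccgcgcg
Hk2, chr6:82774405-82774704, minus strand: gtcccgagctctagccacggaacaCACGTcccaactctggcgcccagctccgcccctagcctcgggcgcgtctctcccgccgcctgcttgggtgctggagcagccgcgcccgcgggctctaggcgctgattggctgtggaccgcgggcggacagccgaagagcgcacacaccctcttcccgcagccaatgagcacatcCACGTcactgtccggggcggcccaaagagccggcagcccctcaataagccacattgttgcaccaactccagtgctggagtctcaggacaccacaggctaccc
Ldha, chr7:46845554-46845853, plus strand: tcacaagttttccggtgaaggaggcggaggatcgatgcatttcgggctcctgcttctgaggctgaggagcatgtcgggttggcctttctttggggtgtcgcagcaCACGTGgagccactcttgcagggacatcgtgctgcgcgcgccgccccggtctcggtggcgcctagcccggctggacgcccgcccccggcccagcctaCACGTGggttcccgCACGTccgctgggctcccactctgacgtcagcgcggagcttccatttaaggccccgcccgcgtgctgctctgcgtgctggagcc

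The Slc2a1 window held the core 1 time, the Hk2 window 2 times and the Ldha window 5 times, of which 2 pairs overlap within CACGTG. A second Ldha start had none, nor had Tpi1 and Pfkp. Promoters were found for 25 of the list genes, and 16 of them had a core in at least 1 promoter. Counted by promoter, 19 of 38 held it, beside 6447 of all 32851 promoters of the table (19.6%). The list was drawn up to include HIF targets, so its share is no independent evidence. Among genes that passed, 13 of 19 held a core, and among those that did not, 3 of 6. No factor was measured at these sequences.

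**Figure D2:**
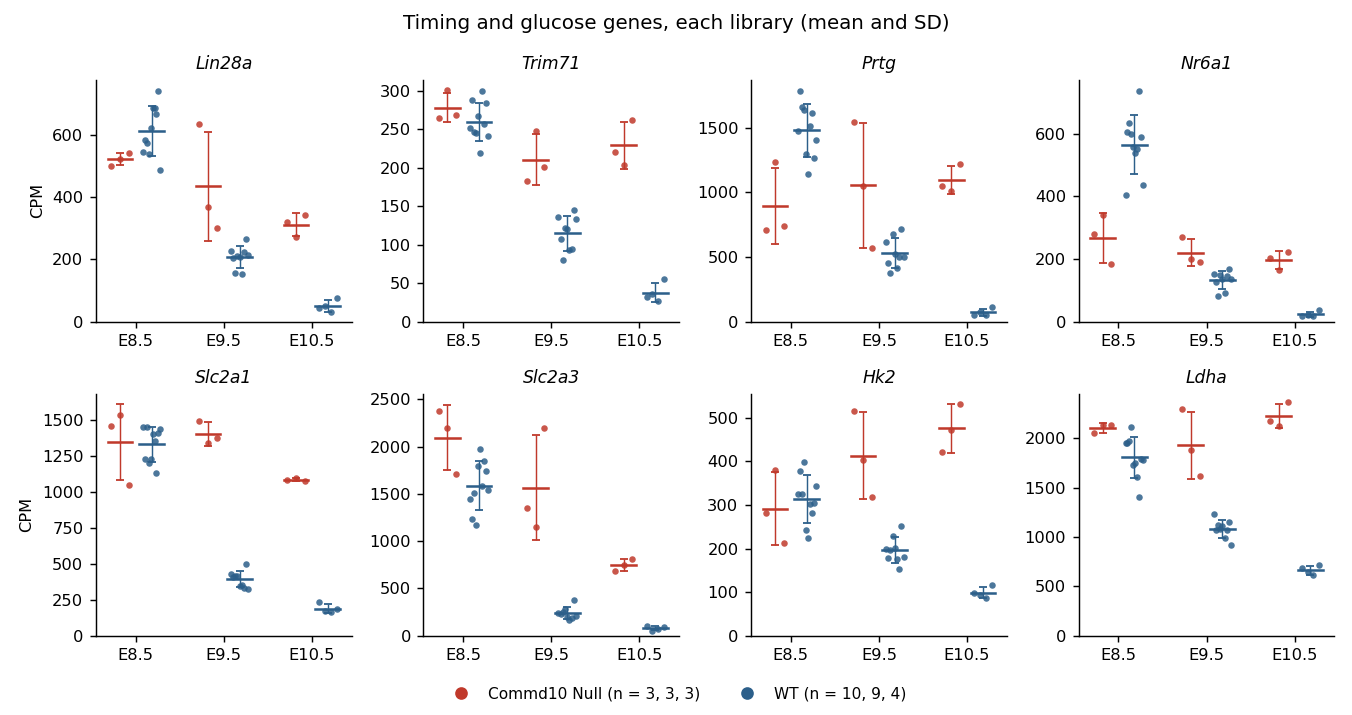
CPM of 4 timing genes (top) and 4 glucose genes (bottom) at the 3 stages, with a point per library, a bar at the mean and whiskers of 1 SD. Null and WT points share a range at E8.5 for Lin28a, Trim71, Slc2a1 and Hk2 and separate by E10.5, where the WT points of Slc2a1 lie at 167 to 232 CPM and the Null points at 1077 to 1097 CPM.

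Most genes of heart muscle were lower in Null embryos at E8.5 and higher at E10.5. The sarcomere is the contractile unit of muscle, and at these stages the heart is the main tissue that builds it. All 20 tested members of the sarcomere and cardiomyocyte list had a positive shift; 18 passed and none passed in the other direction. By the test at each stage 15 were lower in Null embryos at E8.5 and 17 were higher at E10.5. The 2 whose shift did not pass, Nppa, a natriuretic peptide, and Pln, an inhibitor of the calcium pump, had log2 ratios of -0.98 and -0.97 at E10.5. The median shift was 5.01 (4.72 with genes that had a group at 0 set to their bound), made of a median log2 ratio of -2.77 at E8.5 and 2.22 at E10.5. The summed level of the list was 395 to 867 CPM in Null and 457 to 2915 CPM in WT embryos at E8.5, and 7629 to 11225 CPM in Null and 1963 to 2830 CPM in WT embryos at E10.5.

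Tnnt2 (ENSMUSG00000026414, chr1:135836354-135852260, plus strand), the cardiac troponin T, had 10.3, 28.6 and 3.23 CPM in Null and 7.08, 98.3 and 163 CPM in WT embryos at E8.5. It reached 387, 583 and 503 CPM in Null embryos at E10.5, against 109.9, 66, 81.7 and 71 CPM in WT embryos. Null levels rose by 5.11 on the log2 scale between the stages, while WT levels changed by -0.10, which did not pass, a shift of 5.21 ± 0.94 (SE, adjusted p = 2.02e-04, edgeR). The E8.5 groups overlapped, since WT replicates 6, 8 and 9 were at 15.1, 7.08 and 28.4 CPM. Myh6, with 0, 5.39 and 0 CPM in Null and 0, 38.2 and 68.2 CPM in WT embryos at E8.5, had 204, 278 and 237 CPM in Null and 49.3, 30.1, 29.7 and 36.7 CPM in WT embryos at E10.5 (shift 6.74 ± 1.39, adjusted p = 8.80e-04). Without those 3 WT libraries 19 sarcomere genes passed, and Myh6 and Tnnt2 passed with shifts of 7.24 and 5.63. Those libraries were set apart by their low Myh6, so larger shifts of heart muscle genes follow from leaving them out. They are no separate evidence.

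Actn2, the actinin of the Z disc, had 0.408, 0.385 and 0 CPM in Null and 0, 7.21 and 13 CPM in WT embryos at E8.5, and 47.8, 80.9 and 75.4 CPM in Null and 16.8, 9.69, 12.3 and 9.11 CPM in WT embryos at E10.5, a shift of 6.96 ± 1.49 (adjusted p = 0.0013). Ryr2, the calcium release channel of heart cells, shifted by 4.34 ± 0.72 and Tpm1, a tropomyosin also made outside the heart, by 2.11 ± 0.34. Ankrd1 and Asb2, a stress-responsive titin-binding repeat protein and a ubiquitin ligase adaptor of muscle, shifted by 6.17 ± 1.34 and 6.26 ± 1.32. Cox6a2, the muscle form of a cytochrome oxidase subunit, was at 0 counts in all 3 Null libraries of E8.5 and had 39.2, 63.6 and 58.7 CPM in Null and 24.6, 14, 19 and 11 CPM in WT embryos at E10.5. With a floor of 3 counts for the whole group, it was at least 7.85-fold lower in Null than in WT embryos at E8.5, and its interaction had an adjusted p of 0.00899.

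The factors that specify heart muscle moved less at E8.5 than the muscle genes did. Of 15 cardiac transcription factors 10 had a positive shift that passed, none a negative one, and the median was 1.72, with a median log2 ratio of -0.0191 at E8.5 and 1.59 at E10.5. Nkx2-5, an early cardiac homeobox factor, had 4.21, 18.1 and 1.47 CPM in Null and 0.84, 17.7 and 26.4 CPM in WT embryos at E8.5, and 48, 60.0 and 54.8 CPM in Null and 6.66, 4.51, 4.09 and 6.15 CPM in WT embryos at E10.5. The shift was 4.34 ± 0.85 (adjusted p = 5.17e-04). Tbx20 and Gata5, also factors of the early heart, had overlapping ranges at E8.5 and shifts of 3.04 ± 0.41 and 2.93 ± 0.44; both ratios were already at 2.65 and 2.45 at E9.5. Of 18 endothelial genes 5 had a positive shift that passed and none a negative one, or 8 without Null replicate 2 of E8.5; the 5 were Kdr, Flt1, Flt4, Tek and Etv2, receptors and a factor of the blood vessel lineage.

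Of 24 brain regional factors, genes that pattern the neural tube, 13 were lower in Null embryos at E8.5 and 3 at E10.5 by the test at each stage, and none was higher. Of these 24, 9 had a positive shift that passed and none a negative one (median 1.77, or 1.75 with zero groups at their bound). Sox10, a factor of migrating neural crest, gave no count in the 3 Null libraries of E8.5 and 0, 7.14 and 32.8 CPM in WT embryos. With the 3-count floor it was at least 85.3-fold lower in Null embryos than the pooled WT level of 11.7 CPM. WT replicates 6, 8 and 9 had 0, 0.48 and 0.406 CPM, so the bound does not hold against each WT library. At E10.5 Sox10 had 10.6, 9.03 and 14.3 CPM in Null and 26.8, 25.9, 24.4 and 18.6 CPM in WT embryos (interaction adjusted p = 0.0193). The crest factor therefore stayed below every WT library at E10.5, although the gap there did not pass the test of genotype.

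Pax6, an eye and neural tube factor, had 0.136, 1.28 and 0 CPM in Null and 0.706, 25 and 51 CPM in WT embryos at E8.5, and 15.6, 2.6 and 16.7 CPM in Null and 20.1, 35.5, 30.9 and 30.3 CPM in WT embryos at E10.5. The shift was 4.31 ± 1.38 (adjusted p = 0.0268). Wnt1, a ligand made at the dorsal midline, shifted by 5.36 ± 1.44 and Sox1, an early neural plate factor, by 2.35 ± 0.78, with adjusted p of 0.00848 and 0.0336. Fezf1 and Six6, forebrain and eye factors, were at 0 counts in Null embryos at E8.5. They were at least 31.8-fold and 10.7-fold lower there than the pooled WT levels of 4.34 and 1.47 CPM. At E10.5 their Null libraries disagreed, with 8.61, 0 and 3.65 CPM for Fezf1 and 19.7, 0.248 and 14 CPM for Six6. Grem1, a secreted BMP antagonist, was at least 26.7-fold lower in Null embryos at E8.5 than the pooled WT level of 3.65 CPM. At E10.5 it had 2.71, 2.1 and 1.64 CPM in Null and 4.44, 2.03, 1.75 and 5.44 CPM in WT embryos. Egr2, a hindbrain segment factor, passed (shift 6.35 ± 1.48, adjusted p = 0.0027) although both genotypes were low at E10.5, with 0.369, 2.35 and 2.52 CPM in Null and 0.634, 0, 0.35 and 0 CPM in WT embryos.

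Several neural calls were lost or gained when libraries were left out. Pax6 lost its call without Null replicate 1 or 3 of E8.5 or Null replicate 1 or 3 of E10.5, with an adjusted p of at most 0.0856 and shifts of 3.78 to 4.03. Sox1 lost it without those libraries or WT replicate 1 of E10.5, with an adjusted p of at most 0.111 and shifts of 2.03 to 2.39. Sox10 and Six6 lost it without Null replicate 1 or 3 of E8.5, and Six6 also without Null replicate 1 of E10.5, with adjusted p between 0.052 and 0.0555. Pou3f2, Tfap2b, Nr2f1 and Ptn did not pass with all libraries (adjusted p of 0.154, 0.257, 0.141 and 0.0722) and passed without WT replicates 6, 8 and 9 of E8.5 (0.0086, 0.00268, 0.000556 and 3.61e-05). Pou3f2 is a neural progenitor factor, Tfap2b and Nr2f1 are factors of the crest and the hindbrain, and Ptn is a growth factor. Nr2f1 had 1.77, 2.69 and 1.03 CPM in Null and 1.56, 31.7 and 91.2 CPM in WT embryos at E8.5, and 76.7, 73.4 and 63.3 CPM in Null and 293, 336, 311 and 282 CPM in WT embryos at E10.5, so it remained lower in Null embryos at both stages. Mdk, the growth factor related to Ptn, was lower in Null embryos at both stages too, with log2 ratios of -1.13 and -0.93, and had a shift of 0.20 ± 0.23 that did not pass (adjusted p = 0.595).

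The neural progenitor list was mixed, with 4 of 23 genes shifting up and 2 down by the test (median 0.654). Without Null replicate 1 or 3 of either stage 2 shifted up, without WT replicate 8 of E8.5 there were 7, and without WT replicate 4 of E8.5 there were 4 down, and 8 shifted up without WT replicates 6, 8 and 9 together. Nkx6-1, a factor of the ventral neural tube, shifted up by 2.54 ± 0.69. Pou3f3, a factor of neural progenitors that shifted down, had 0.272, 0.898 and 1.03 CPM in Null and 0, 1.12 and 2.19 CPM in WT embryos at E8.5 and 1.48, 3.34 and 1.51 CPM in Null and 48.8, 78.4, 69.8 and 63.1 CPM in WT embryos at E10.5 (shift -4.50 ± 0.98). Of 24 genes of neural crest and cranial mesenchyme 3 shifted up and 3 down, and neither count was stable: 1 shifted up without Null replicate 1 of E8.5 and 5 without Null replicate 2 of E8.5, and 7 up and 1 down without WT replicates 6, 8 and 9, while 0 or 1 shifted down without any one Null library of E8.5 or any one library of E10.5.

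**Figure D3:**
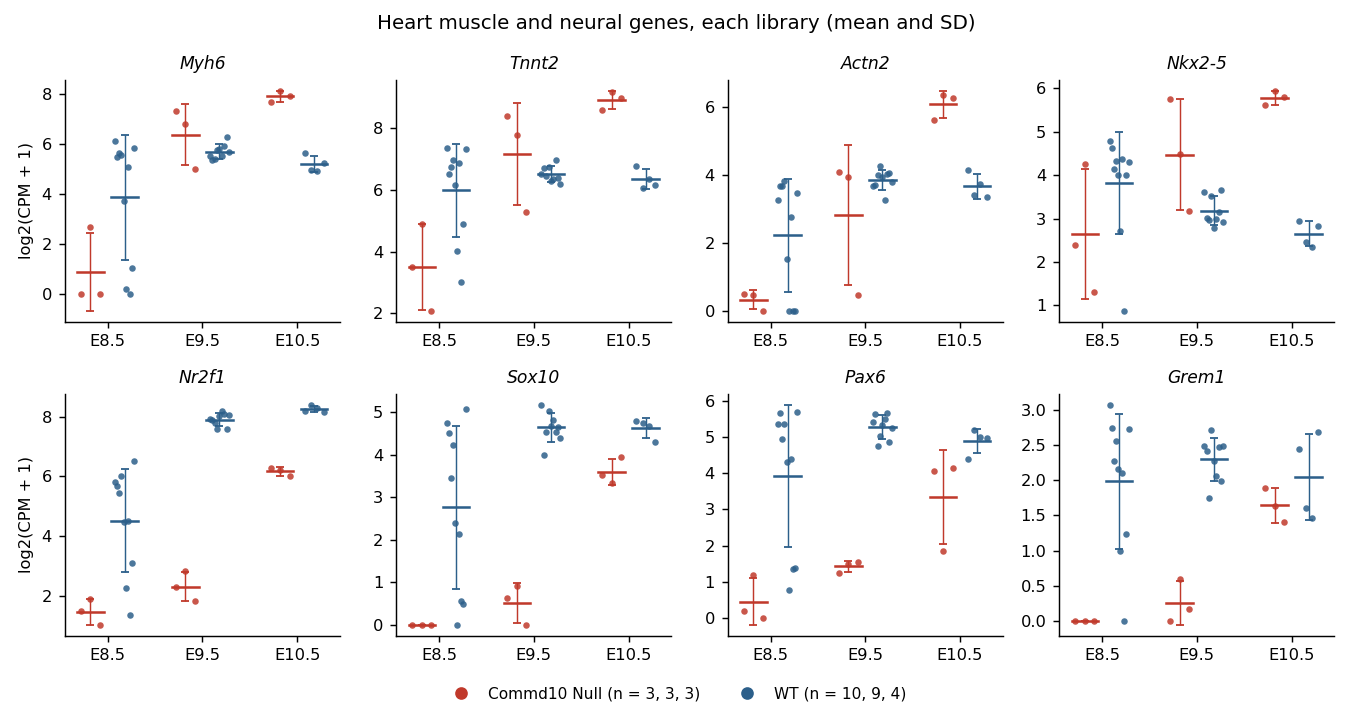
Levels as log2(CPM + 1) of 4 heart genes (top) and 4 genes of neural tube, crest and BMP signalling (bottom), 1 point per library with mean and 1 SD, Null left of WT at each stage. The 3 Null points of Sox10 and Grem1 lie at 0 at E8.5, and 1 WT point of each at E8.5 lies at 0 as well; at E10.5 the Null points of Myh6, Tnnt2, Actn2 and Nkx2-5 lie above all WT points.

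Genes of postmitotic neurons shifted in the other direction. Of 24 genes of neuronal differentiation 13 had a negative shift that passed and none a positive one, with a median of -3.25. The median log2 ratio was -0.618 at E8.5 and -4.21 at E10.5. Nefm, a neurofilament subunit of axons, had 24.9, 19.4 and 49.9 CPM in Null and 17.7, 23.4 and 55.1 CPM in WT embryos at E8.5. At E10.5 it had 6.27, 4.95 and 4.03 CPM in Null and 224, 189, 263 and 135 CPM in WT embryos. The ranges overlapped at the first stage and every Null library lay below every WT library at the second, with a shift of -5.48 ± 0.54 (SE, adjusted p = 2.56e-08, edgeR). Nefl, its partner subunit, followed, with 4.67, 4.83 and 7.3 CPM in Null and 114, 102, 165 and 86.8 CPM in WT embryos at E10.5 and a shift of -4.41 ± 0.52.

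Tubb3, the tubulin of neurons, had 6.53, 4.36 and 7.34 CPM in Null and 5.16, 13.1 and 16.8 CPM in WT embryos at E8.5 and 7.01, 4.58 and 5.92 CPM in Null and 159, 174, 228 and 134 CPM in WT embryos at E10.5. It was lower in Null embryos at both stages, and the shift was -3.80 ± 0.43 (adjusted p = 2.50e-07): Null embryos changed by -0.05 on the log2 scale, which did not pass, and WT embryos rose by 3.75. Fabp7, a fatty acid carrier of radial glia, had 6.12, 11.2 and 4.99 CPM in Null and 2.81, 6.56 and 19.2 CPM in WT embryos at E8.5, and 0, 1.61 and 0.881 CPM in Null and 86.5, 101, 98.4 and 42 CPM in WT embryos at E10.5 (shift -6.46 ± 0.79, adjusted p = 1.08e-06). Dcx, a microtubule protein of migrating neurons, was at most 1.69 CPM in every library of E8.5, and had 1.48, 0.248 and 0.126 CPM in Null and 47.8, 56, 77.5 and 31.9 CPM in WT embryos at E10.5. Its shift of -6.14 ± 1.72 (adjusted p = 0.0119) did not pass without Null replicate 1 or 3 of E8.5, with adjusted p of 0.135 and 0.0735.

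Hes6, Ckb and Camk2n1 crossed over. Hes6, a factor that favours neuron formation, had 31.7, 31.7 and 33.6 CPM in Null and 19.2, 23.4 and 28.7 CPM in WT embryos at E8.5, and 28.6, 31.9 and 31.3 CPM in Null and 94.6, 90.0, 110.1 and 70.6 CPM in WT embryos at E10.5. Every Null library lay above every WT library at E8.5 and below every WT library at E10.5, and the shift was -2.04 ± 0.20 (adjusted p = 2.86e-08). Ckb, the brain creatine kinase, shifted by -2.57 ± 0.33 with log2 ratios of 0.99, -1.04 and -1.58 at the 3 stages. Camk2n1, an inhibitor of the calcium kinase CaMKII, shifted by -2.52 ± 0.28 with ratios of 0.64, -1.31 and -1.88.

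Red cell genes shifted down, and some of them crossed over. Primitive red cells of the yolk sac make the embryonic globins Hba-x, Hbb-bh1 and Hbb-y, and the adult chains Hba-a1, Hba-a2, Hbb-bs and Hbb-bt dominate later and in the mother. All 4 adult and all 3 embryonic globins had a negative shift that passed, and 14 of 19 erythroid genes did, with medians of -6.87, -5.18 and -4.44. By the test at each stage, all 4 adult globins were higher in Null embryos at E8.5 and 3 were lower at E10.5, and 2 embryonic globins were higher at E8.5 and 1 was lower at E10.5. Of the 19 erythroid genes 16 were higher in Null embryos at E8.5, while 8 were lower and 1 was higher at E10.5. Their summed level was 142 to 474 CPM in Null and 143 to 196 CPM in WT embryos at E8.5. At E10.5 it was 275 to 328 CPM in Null and 322 to 449 CPM in WT embryos. The ranges of the sum thus overlapped at both stages. One erythroid gene shifted up: Tfrc, the transferrin receptor, which most dividing cells carry, by 1.01 ± 0.29 (adjusted p = 0.0137, or 0.0715 without Null replicate 3 of E8.5).

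Hba-a1 had 278, 180.5 and 145 CPM in Null and 3.12, 28.7 and 52.3 CPM in WT embryos at E8.5. It had 114, 207 and 126 CPM in Null and 1627, 2568, 1884 and 2444 CPM in WT embryos at E10.5. The Null libraries were thus all above the WT range at E8.5 and all below it at E10.5, a shift of -6.66 ± 0.72 (SE, adjusted p = 1.37e-07, edgeR). The crossing fell before E9.5, where the log2 ratio was -1.84. Hba-a2, a near-identical copy whose reads can be confused with those of Hba-a1, shifted by -7.08 ± 0.74.

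Hbb-bs and Hbb-bt are close copies as well. Hbb-bs had 529, 489 and 463 CPM in Null and 8.64, 44.4 and 197 CPM in WT embryos at E8.5, and 11.3, 36.6 and 8.56 CPM in Null and 28.8, 45.1, 43 and 45.7 CPM in WT embryos at E10.5. Hba-x had 860.3, 236 and 0 CPM in Null and 1.32, 17.6 and 141 CPM in WT embryos at E8.5, and 453, 802 and 538 CPM in Null and 2799.8, 4629, 3091 and 5990.4 CPM in WT embryos at E10.5. Null replicate 3 of E8.5 held none of Hba-x, Hbb-bh1 or Hbb-y and yet had 145 CPM of Hba-a1 and 463 CPM of Hbb-bs. The shifts were -4.09 ± 0.88 for Hbb-bs, -7.54 ± 1.02 for Hbb-bt and -5.95 ± 1.38 for Hba-x, with adjusted p of 0.00132, 5.05e-06 and 0.00272.

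Hbb-y was the weakest of the globins: it rose steeply in both genotypes, to 1084, 1868 and 1078 CPM in Null and 7132, 11023, 7518 and 11213 CPM in WT embryos at E10.5. Its shift of -3.38 ± 1.17 (adjusted p = 0.041) did not pass without Null replicate 1 of E8.5 (0.348), without any one Null library of E10.5 or WT replicate 2, 3 or 4 of E10.5 (0.0508 to 0.102), or with DESeq2 (0.1). Alas2, the first enzyme of haem synthesis in red cells, had 16.7, 9.49 and 9.25 CPM in Null and 0.253, 1.78 and 2.4 CPM in WT embryos at E8.5, and 8.24, 14.5 and 9.19 CPM in Null and 41.4, 61.2, 43.9 and 58 CPM in WT embryos at E10.5. Its shift was -5.21 ± 0.65 (adjusted p = 1.49e-06). Hemgn, a nuclear protein of erythroid cells, shifted by -6.03 ± 1.06, and its E8.5 Null values were uneven, at 15.8, 3.59 and 0 CPM. Bcl11a, the factor that silences embryonic globin in later red cells and is also made in neurons, had 1.9, 2.82 and 8.95 CPM in Null and 0, 0.0581 and 3.66 CPM in WT embryos at E8.5, and 2.58, 2.35 and 0.881 CPM in Null and 61.6, 44.2, 58.4 and 32.4 CPM in WT embryos at E10.5 (shift -7.57 ± 1.22, adjusted p = 5.70e-05).

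**Figure D4:**
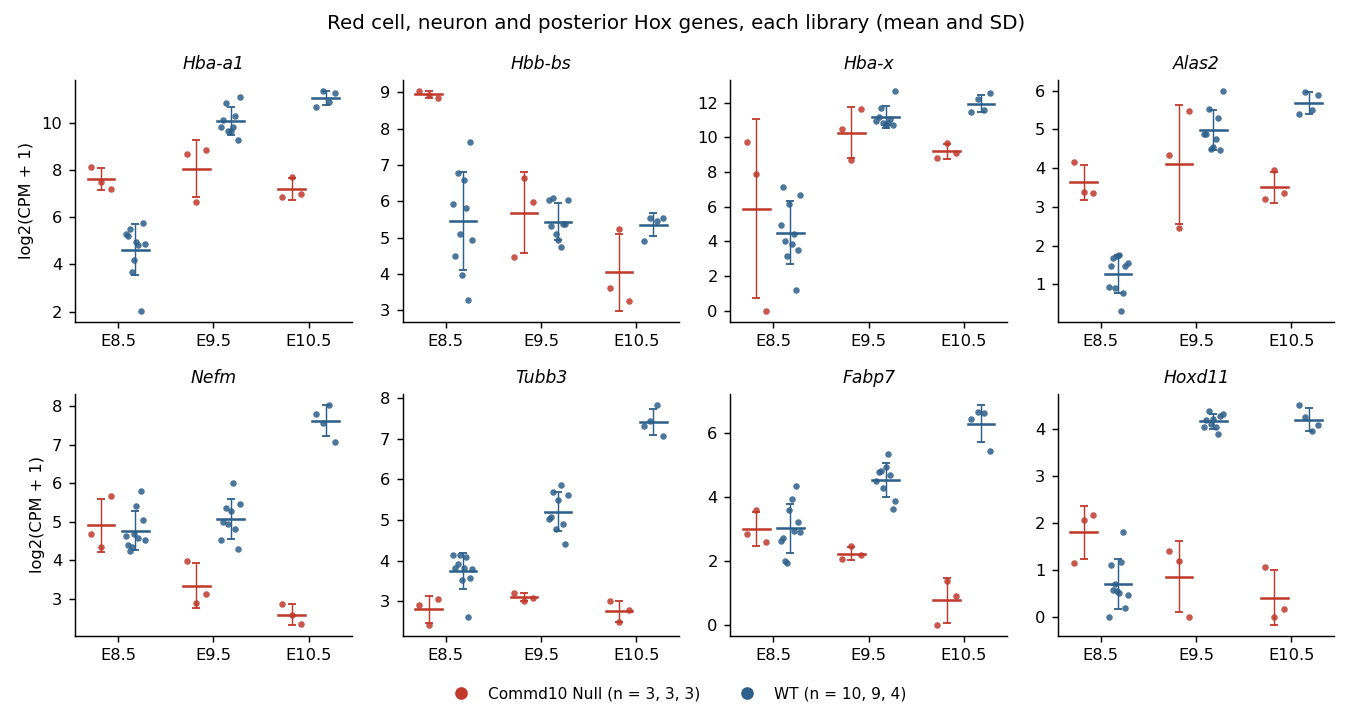
Levels as log2(CPM + 1) of red cell genes (Hba-a1, Hbb-bs, Hba-x, Alas2), neuronal and glial genes (Nefm, Tubb3, Fabp7) and Hoxd11, 1 point per library with mean and 1 SD, Null left of WT at each stage. Null points of Hba-a1 and Alas2 lie above the WT points at E8.5 and below them at E10.5, one Null point of Hba-x lies at 0 at E8.5, and the neuronal genes separate by E10.5.

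Some posterior Hox genes shifted down. Genes of Hox groups 9 to 13 switch on in order as the tail and limb buds extend. Of 14 tested genes 5 had a negative shift that passed, none a positive one, and the median was -3.32. The 5 were Hoxa10, Hoxa11, Hoxd10, Hoxd11 and Hoxd13, the last named after its value was seen. Hoxd11 had 1.22, 3.21 and 3.52 CPM in Null and 0, 0.479 and 2.52 CPM in WT embryos at E8.5, and 1.11, 0 and 0.126 CPM in Null and 21.9, 18, 14.5 and 16.1 CPM in WT embryos at E10.5, a shift of -7.14 ± 0.92 (SE, adjusted p = 2.53e-06, edgeR). Hoxa10 had 15.4, 14.8 and 12.9 CPM in Null and 1.23, 6.27 and 12.1 CPM in WT embryos at E8.5, above every WT library, and 3.81, 3.34 and 4.53 CPM in Null and 24, 21.5, 16.9 and 19.4 CPM in WT embryos at E10.5, below every WT library. Hoxa11, Hoxd10 and Hoxd13 shifted by -4.77 ± 0.94, -4.32 ± 0.86 and -3.91 ± 1.20. Hoxd13 did not pass without Null replicate 1 of E8.5 or Null replicate 1 or 2 of E10.5 (adjusted p of 0.158, 0.0666 and 0.0605). Of 22 genes of Hox groups 1 to 8, 2 shifted up and none down, with a median of 0.058; Hoxd1 was among those that rose relative to WT.

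RNA of the mitochondrial genome shifted down for some genes. Of 8 tested genes 4 had a negative shift that passed and 1 a positive one, with a median of -1.68. mt-Nd4, a subunit of complex I, had 6044, 5372 and 4394 CPM in Null and 1876, 2587 and 5176 CPM in WT embryos at E8.5, and 2624, 2643 and 2891 CPM in Null and 12934, 10550, 9098 and 9742 CPM in WT embryos at E10.5. Its shift was -2.78 ± 0.35 (adjusted p = 1.42e-06, edgeR), and mt-Nd2, another subunit of complex I, shifted by -1.63 ± 0.32. The gene that shifted up was mt-Nd6, named after its value was seen, by 1.82 ± 0.52 (adjusted p = 0.0129, or 0.055 without Null replicate 3 of E8.5). It is encoded on the strand opposite to the other protein genes, and the sources used here do not give the strand used in counting. Mitochondrial RNA took 2.17 to 2.85% of counts in Null and 1.22 to 3.15% in WT libraries at E8.5, and 1.64 to 1.78% in Null and 3.38 to 4.29% in WT libraries at E10.5. Of 24 nuclear genes of the respiratory chain, 4 shifted down and none up, with a median of -0.233.

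Lists of other cells that the dissected embryo could carry were examined too. Of 14 tested macrophage and leukocyte genes 9 had a negative shift that passed and none a positive one; 4 of the list's 18 genes had too few counts to test. The summed level of the 18 genes was 62.3 to 78.2 CPM in Null and 18.7 to 42.3 CPM in WT embryos at E8.5, with 2 genes at 0 in Null and 4 in WT embryos. At E10.5 it was 20.2 to 34.8 CPM in Null and 69.2 to 107 CPM in WT embryos, with 5 genes at 0 in Null and 0 in WT embryos. Cx3cr1, the fractalkine receptor of microglia and other macrophages, had 1 count over all Null libraries and 11.6, 11.5, 11.3 and 9.11 CPM in WT embryos at E10.5, a WT to Null ratio of 264 (95% counting interval 47.1 to 10400). C1qa and C1qc, subunits of complement C1q, and Cd52, a small leukocyte surface protein, were at 0 counts in Null embryos at E10.5 and at least 18.9-fold, 36.9-fold and 16.2-fold lower there than in WT. At E8.5 the same genes had 11, 10 and 30 counts in Null embryos and 2, 0 and 1 counts in WT embryos. C1qc and Cx3cr1 lost their call without Null replicate 2 of E8.5, the one Null library of that stage with counts of either.

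Visceral and yolk sac endoderm genes had 7 negative shifts among 23 and no positive one that passed, but this rested on WT replicate 1 of E10.5: without it 1 gene shifted down and 1 up, while 11 shifted down without WT replicates 6, 8 and 9 of E8.5 and 11 with a replicate block. The summed level of that list at E10.5 was 282 to 412 CPM in Null embryos, against 1671 CPM in that WT library and 227 CPM in the lowest one. At E8.5 it was 5670 to 8032 CPM in Null and 758 to 6158 CPM in WT embryos. Afp, the fetal serum protein of yolk sac and liver, had 7.5, 5.69 and 9.57 CPM in Null and 604, 45.3, 32.7 and 45 CPM in WT embryos at E10.5, so WT values outside that library were also above the Null values; its shift was -5.19 ± 1.26 (adjusted p = 0.0038, and 0.0431 without the library). Fgb, a fibrinogen chain, shifted by -4.12 ± 1.06 (adjusted p = 0.00606, and 0.0537 without the library). Apoa4, an apolipoprotein, was at 28.5, 0, 0 and 0 CPM in WT embryos at E10.5, and its shift of -6.30 ± 2.11 turned to 2.55 (adjusted p = 0.731) without WT replicate 1, when no WT count of E10.5 was left and the fitted value is no bound. The summed level of the genes of decidua and uterine natural killer cells was 166 to 512 CPM in Null and 87.9 to 206 CPM in WT embryos at E8.5, and 256 to 389 CPM in Null and 103 to 154 CPM in WT embryos at E10.5. That of 16 trophoblast and placenta genes was 482 to 649 CPM in Null and 215 to 626 CPM in WT embryos at E8.5, and 418 to 553 CPM in Null and 134 to 209 CPM in WT embryos at E10.5. These E10.5 ranges lay apart, and 5 of the genes were at 0 in Null and 5 in WT embryos; 2 of 10 tested genes shifted up and none down, or 0 up without Null replicate 2 or 3 of E8.5, WT replicate 2 of E10.5 or Null replicate 2 of E10.5 and 1 without WT replicates 6, 8 and 9 of E8.5. The 2 trophoblast list genes that shifted up with all libraries were Hand1 and Peg10. Hand1 is also on the cardiac factor list and Peg10 on the imprinted list. The summed levels of these lists are thus not specific to tissue carried over with the embryo. The part of these cells in the other results was not tested. Of 12 tested genes of decidua and uterine natural killer cells, 1 shifted up and 1 down, or 3 up without WT replicates 6, 8 and 9 of E8.5. The gene that shifted up was Bmp2. The gene that shifted down was Gzmc, a granzyme. It had 2.45, 11.9 and 2.05 CPM in Null and 0, 0 and 0.406 CPM in WT embryos at E8.5. At E10.5 it had 1 count in Null and 4 in WT embryos. Its shift did not pass without WT replicate 1 of E10.5 (adjusted p = 0.0641, edgeR). The other tested granzymes, Gzmb, Gzmd, Gzmf and Gzmg, had positive fitted log2 ratios at both stages. These were 5.8, 3.9, 4.0 and 4.8 at E8.5 and 4.1, 4.8, 3.5 and 4.5 at E10.5, and none of their shifts passed.

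Genes higher in Null embryos at E8.5 alone included the annexins Anxa1 and Anxa8, which bind membranes in a calcium-dependent way, and Inhba, a subunit of activin. Anxa8 had 4.49, 2.44 and 2.2 CPM in Null embryos at E8.5 and 1 count over the 10 WT libraries, a Null to WT ratio of 239 (95% counting interval 41.5 to 9580). At E10.5 it had 0.246, 0.866 and 0 CPM in Null and 1.37, 0.789, 0.584 and 2.48 CPM in WT embryos. Anxa1 had a ratio of 96.3 (25.4 to 816) at E8.5 and Inhba one of 54.7 (17.6 to 275). Their interactions had adjusted p of 1.32e-04, 0.00101 and 0.0073. Of the 40 genes that the study singled out, chosen on these samples, 13 shifted up and 10 down; without Null replicate 3 of E8.5 there were 7 up, and without WT replicates 6, 8 and 9 there were 20 up.

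Genes of epithelia and junctions were among those with the smallest p, although the list of epithelium and surface ectoderm was mixed, with 5 of 20 genes shifting up and 3 down (median 0.372). Krt8, a keratin of simple epithelium, had 100.5, 125 and 113 CPM in Null and 78.6, 108 and 143 CPM in WT embryos at E8.5, and 115, 114 and 83.8 CPM in Null and 24.2, 11.7, 18.7 and 17.3 CPM in WT embryos at E10.5, a shift of 2.43 ± 0.26 (adjusted p = 1.37e-07, edgeR). Pkp2, a desmosome protein, shifted by 2.44 ± 0.26. Between the stages Krt8 and Pkp2 changed by -0.12 and 0.28 in Null embryos, which did not pass, and by -2.55 and -2.16 in WT embryos. Itga6, the laminin receptor subunit, had 50.6, 52.9 and 41.5 CPM in Null and 52.2, 98.2 and 119 CPM in WT embryos at E8.5, and 236, 288 and 292 CPM in Null and 69.3, 68.1, 72.9 and 91 CPM in WT embryos at E10.5. It crossed from lower to higher, with a shift of 2.74 ± 0.30 (adjusted p = 1.43e-07). Afdn, the junction scaffold afadin, Ktn1, a kinesin-binding membrane protein, Wtip, a LIM protein of junctions, and Pdlim5, a LIM protein of the Z disc, crossed over in the same direction with shifts of 1.62 ± 0.16, 1.23 ± 0.15, 1.25 ± 0.16 and 2.09 ± 0.25.

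The integrated stress response had 8 positive shifts and 1 negative among 20 tested genes (median 0.403); the negative one, Cebpb, a factor of stress and fat cells, was lost without WT replicate 1, 2, 4, 8 or 9 of E8.5, Null replicate 1 or 3 of E8.5, any one library of E10.5, or WT replicates 6, 8 and 9 of E8.5 together. Ddit4, an inhibitor of mTORC1 raised by stress and by hypoxia, had 62.9, 74 and 52.1 CPM in Null and 56.2, 101 and 143 CPM in WT embryos at E8.5, and 231, 295 and 216 CPM in Null and 59.1, 54.1, 65.5 and 56.7 CPM in WT embryos at E10.5. Its shift was 2.73 ± 0.34 (adjusted p = 1.24e-06, edgeR). Stc2, a secreted glycoprotein, shifted by 3.10 ± 0.44, and Mthfd2, a mitochondrial folate enzyme, by 1.01 ± 0.17. Of 23 genes of ribosome biogenesis 13 shifted up and none down, by small amounts (median 0.57), among them the nucleolar Nolc1 (0.92 ± 0.13). Of 23 imprinted genes 10 shifted up and none down (median 0.881), such as the mannose 6-phosphate receptor Igf2r (1.68 ± 0.38), and the count was 5 without Null replicate 1 of E8.5, WT replicate 2 of E10.5 or Null replicate 2 of E10.5.

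Negative shifts with the smallest p also included widely expressed genes. Top2b, the topoisomerase of postmitotic cells, had 110.1, 126 and 114 CPM in Null and 101, 124 and 144 CPM in WT embryos at E8.5, and 174, 197 and 178 CPM in Null and 458, 464, 481 and 477 CPM in WT embryos at E10.5, a shift of -1.26 ± 0.14 (adjusted p = 1.72e-07, edgeR). Psmb7, a proteasome subunit, had 168, 163 and 184 CPM in Null and 128, 149.7 and 175 CPM in WT embryos at E8.5, and 149, 145 and 127 CPM in Null and 298, 308, 287 and 294 CPM in WT embryos at E10.5, a shift of -1.25 ± 0.14. For both, nearly the whole difference was there at E9.5, with log2 ratios of -1.41 and -0.99. Rgs2, an inhibitor of G protein signalling, crossed from higher to lower with a shift of -2.83 ± 0.37.

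Signalling lists were mixed. Over all genes tested, 10.3% shifted up and 8.29% shifted down by the test, and a count near those shares is no result about its list. Of 31 genes for Wnt ligands, receptors and targets 7 shifted up and 1 down, and of 20 Notch pathway genes 3 up and 4 down, where Dll1, Dll3, Nrarp and Hes6 fell relative to WT and Jag1, Hes1 and Hes3 rose. Of 13 tested growth factor genes 6 shifted up and none down (median 1.11), and of 27 genes of extracellular matrix 9 up and 1 down (median 0.84), the last being Eln, which encodes elastin. Of 25 lysosomal genes 5 shifted down and none up, with a median of -0.52. Of 10 notochord and node genes 4 shifted up and 2 down (median 1.29), of 23 genes of BMP, activin and their antagonists 5 up and 2 down (median 0.2), and of 13 Hedgehog pathway genes 3 up and none down (median 0.443). Of 15 limb bud genes 2 shifted up and 4 down (median -0.706), of 21 genes of epiblast, streak and tailbud 4 up and 2 down (median 0.227), and of 18 genes of trunk mesoderm and somites 1 up and 1 down (median -0.225). Copper transport and metallothionein genes had 1 up and 5 down among 14 (median -0.29), and iron handling genes 1 up and 2 down among 12 (median -0.437). A count of 3 positive shifts and no negative one passed among 19 genes of the unfolded protein response (median 0.139) and likewise among 12 chaperone genes (median 0.371). Of 25 genes of cholesterol and fatty acid synthesis 2 shifted up and 1 down (median 0.367), of 23 p53 target and apoptosis genes 2 up and 3 down (median 0.033), and of 14 NF-kB subunits and inhibitors none up and 1 down (median -0.0808). Of 30 genes of DNA replication and the cell cycle, 3 shifted up and 3 down (median 0.0981), and of 28 ribosomal protein genes 1 up and 4 down (median -0.235). None of 15 genes of retinoic acid synthesis and binding passed in either direction. Of 23 genes of the COMMD family and its endosomal partners none shifted up and 2 shifted down, Commd3 by 0.92 and the WASH complex subunit Washc3 by 1.39 on the log2 scale.

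Many of these small counts depended on the libraries. With 1 library left out, the nuclear respiratory chain had 1 to 6 genes shifting down, DNA replication and the cell cycle 0 to 4 down, ribosomal proteins 2 to 5 down, and trunk mesoderm and somites 0 to 3 up. Notochord and node had 1 to 3 down, BMP and activin genes 1 to 3 down, and the COMMD family 1 to 3 down. Copper transport and metallothioneins had 3 down without Null replicate 1 of E8.5 or Null replicate 3 of E10.5, chaperones 1 up without Null replicate 1 of E10.5, and the Notch pathway 2 down without Null replicate 3 of E10.5. Limb bud genes had 4 up without Null replicate 2 of E8.5. Without WT replicates 6, 8 and 9 of E8.5 together there were 11 Wnt genes up and 2 down, 5 Notch genes up, 5 Hedgehog genes up, 4 limb bud genes up, 4 p53 and apoptosis genes up and 5 down, 1 growth factor gene down, 2 NF-kB genes down and 4 genes of the COMMD family down.

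**Figure D5:**
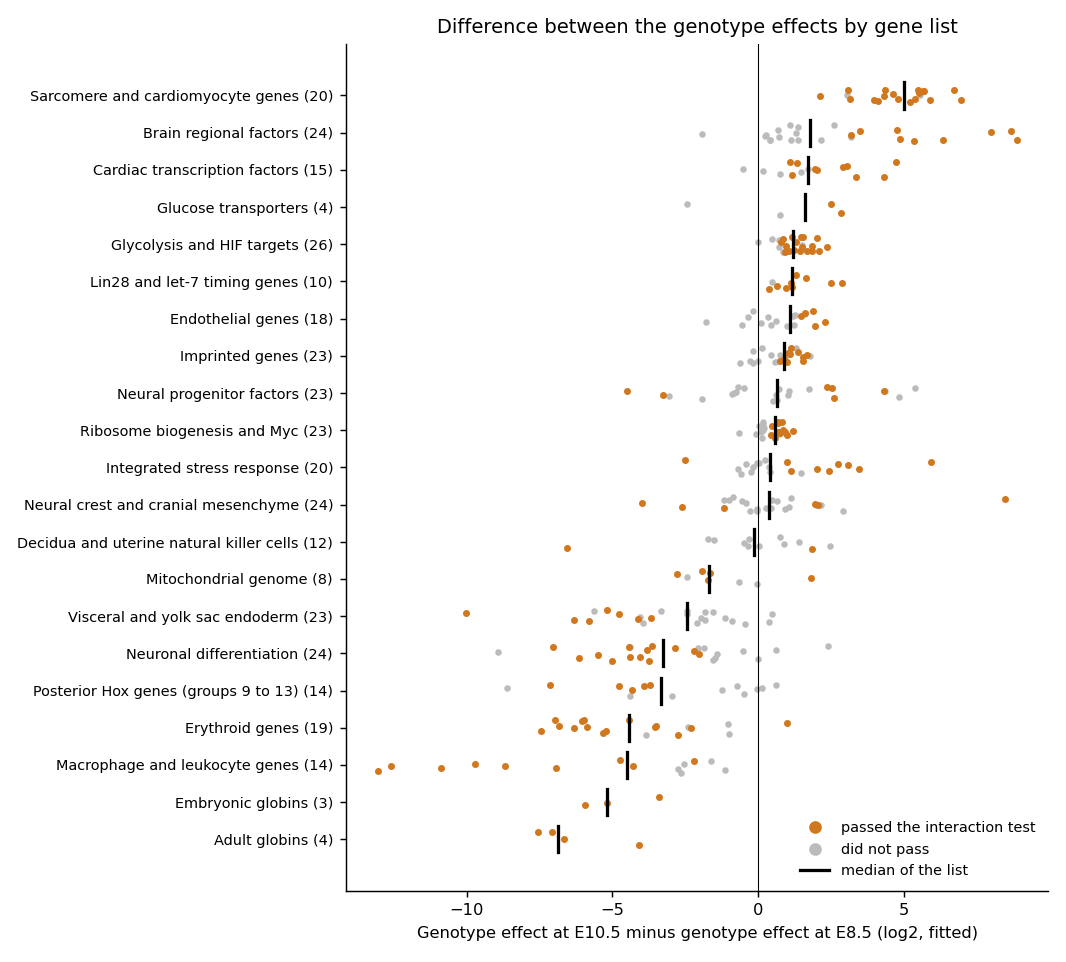
Shift of every tested member of 21 gene lists, the fitted log2 genotype effect at E10.5 minus that at E8.5, with the number tested in brackets, orange where the interaction passed and grey where it did not, and a black bar at the list median. Medians run from -6.87 for adult globins to 5.01 for sarcomere genes; fitted shifts of members with a group at 0 counts are no bounds.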

How the data were processed

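Whole Commd10 Null and WT embryos of 3 stages were profiled by QuantSeq 3′ FWD libraries, which give 1 tag per transcript end. The deposited table held raw counts of tags per gene for 32 libraries; per the labels (the submitters' processing notes), Trimmomatic 0.35 and STAR were used with mm10, while the study's methods name BBDuk for trimming. The counter, its strand setting and the gene models were not given in the sources used here. A 3′ tag count does not depend on transcript length. Columns were matched to groups by their names.

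From the counts, edgeR 4.0.16 (R 4.3.3) fitted 6 group means over all 32 libraries, with TMM factors, quasi-likelihood tests and Benjamini-Hochberg adjustment over 15057 genes that passed filterByExpr (at least 10 counts in 3 libraries and 15 in all). Zero groups were bounded by a floor of 3 counts over the group, set against the pooled level of the other group. Intervals and bounds cover counting error only, not the spread between libraries. P-values measure the spread between these libraries. The SE of a shift was derived from the test, as the size of the shift divided by the square root of its F statistic. The script was tested on simulated data.

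Named were, among genes that passed with a mean of 10 CPM and a shift of 1, the 12 smallest p, 8 largest shifts and 8 opposite effects in each direction, and, with no such minimum, the 4 smallest p of each of 48 lists, the genes the study named and Commd10. Cebpb, Dicer1, Dll1, Eln, Flt4, Gzmb, Gzmd, Gzmf, Gzmg, Nppa, Nrarp, Pln, Hoxd13 and mt-Nd6 were named after their values were seen. Some genes that the rule named are not reported here. The members and lists were chosen with earlier results of these data known. Alternatives were RLE factors, no factors, 2 gene exclusions, 2 filters, DESeq2 1.42.0, the 20 libraries alone, a replicate block and leaving out each library.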

Additional observations from a re-analysis of the deposited data

Results flagged for a closer look

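The genotype effect differed between E8.5 and E10.5 for 2792 genes by the interaction test, and 216 genes passed in opposite directions at both stages.

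In 14 of 194 groups checked, the highest or lowest library stood far from the rest by Dixon's criterion. Chance meets it in at most about 1 of 20 groups of normally spread values. In WT embryos of E10.5 the highest library was at 604 CPM for Afp, 51.1 for Fgb, 28.5 for Apoa4 and 5.32 for Nepn, an extracellular matrix protein. The lowest WT library of E10.5 was at 28.8 CPM for Hbb-bs and 9.11 for Cx3cr1. In WT embryos of E8.5 the highest library was at 63.9 CPM for Hbb-y, 3.66 for Bcl11a, 2.31 for Hemgn and 2.52 for Hoxd11. At lower levels the highest WT library of E8.5 also stood apart for Cd52 (0.12 CPM), C1qa (0.256), Anxa1 (0.256) and Anxa8 (0.141). Cd52 and Anxa8 had 1 count and C1qa and Anxa1 had 2 counts over the 10 WT libraries. With all counts in 1 library the criterion is met by construction, so the rate of 1 in 20 does not apply to them. Nor does it apply to Apoa4, whose WT counts of E10.5 all lay in 1 library.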

How the results depend on the processing

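The counts of genes passing with a shift of at least 1 ranged from 674 to 1016 higher and 586 to 863 lower when 1 library was left out, and the count at any size from 2060 to 2995. Requiring a shift of at least 1 gave 1636 genes. Genes with opposite effects ranged from 79 to 279 when 1 library was left out, and were 398 without WT replicates 6, 8 and 9 of E8.5, an alternative chosen after the data were seen, under which 1558 of the 1636 genes passed again (95.2%). One named gene reversed: Apoa4 had a shift of 2.55 without WT replicate 1 of E10.5, and its shifts ranged from -7.53 to 2.55 when 1 library was left out. With no scaling factors the median shift of all genes was -0.0789, and 44.3% of calls were higher against 52.2%. Macrophage genes with a negative shift were 4 under the stricter filter of 50 counts. Same-numbered libraries did not deviate together (correlations of -0.0657 to 0.111), and a replicate block gave 2575 genes passing and the same calls for all 97 genes examined. Fitting the 20 libraries alone gave 2882 genes passing, and Pax6, Sox1, Sox10 and Hbb-y lost their calls (adjusted p of 0.067, 0.066, 0.0508 and 0.0663). DESeq2 gave 3107 genes passing, and the call differed for 2 of the 97, Hbb-y and Pou3f2.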
